A study of Mus musculus with 6 samples.

Results

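Cholesterol synthesis is switched by a sensor in the membrane of the endoplasmic reticulum, and 8 genes of that circuit are described here. They are Insig1 and Insig2, Srebf1 and Srebf2, Scap, and the enzyme genes Hmgcs1, Sqle and Idi1. The members were chosen by gene name, through the accession that each array probe targets, after the difference between knockout and wild-type arrays had been seen. That difference is therefore a description for them, given with its error and without a test of its own. All 8 were well above background on all 6 arrays, and they stand among 21203 genes kept by a filter on dim probes, which asked for signal well above background on all 3 arrays of KO or of WT neonates.

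The arrays read kidney RNA of newborn mice about 6 hours after birth, 1 single-colour array per neonate. The first group, labelled USP10 KO, holds 3 neonates with a knockout of Usp10, which encodes a deubiquitinating enzyme. The second, labelled USP10 WT, holds 3 wild-type neonates, and all 6 samples carry the label male. The allele, the deleted part of the gene, the strain and the relation between neonates are not given in the sources used here.

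SREBP proteins are transcription factors made as precursors that sit in the endoplasmic reticulum bound to SCAP. When sterols are scarce, SCAP escorts them to the Golgi, where proteases release the active part. When sterols are plentiful, INSIG proteins hold SCAP back. SREBP-2, from Srebf2, mainly drives cholesterol synthesis and uptake genes, and SREBP-1, from Srebf1, mainly drives fatty acid synthesis. Insig1 is itself a target of SREBP, so the circuit feeds back on itself. The kidney makes cholesterol for its own membranes.

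Values below are log2 signal relative to the 75th percentile of the same array, and a difference is KO minus WT on that scale. Per array, 64.4% to 73.9% of spots passed as well above background, the intensity at the 75th percentile lay between 306.2 and 578.8, and no spot was saturated. The scan times in the file headers put the arrays into 2 scan groups: KO replicates 1 and 2 and WT replicates 2 and 3 in scan group 1, and KO replicate 3 and WT replicate 1 in scan group 2. The Usp10 probe went against the labels, at 3.64, 3.37 and 3.56 on the arrays labelled KO and 3.01, 3.13 and 2.95 on those labelled WT. It may lie outside the deleted part and then checks nothing, so KO and WT name labels throughout. Y-linked Eif2s3y was well above background on 5 arrays and stood at -8.11 on WT replicate 2. Xist RNA, which coats an inactive X chromosome, was above background on WT replicates 1 (-0.62) and 2 (0.43), against their label male, and differences against WT replicate 3 alone are therefore given too. All 15 kidney markers listed for the check, such as Lrp2, Umod, Nphs1 and Six2, were measured.

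INSIG1 is the anchor protein whose own amount follows SREBP activity, and Insig1 had the widest gap of the 8. Its probe read -3.07, -2.94 and -2.89 in KO neonates, against -3.99, -4.15 and -3.99 in WT neonates. The 3 KO arrays lay within 0.18 of each other and the 3 WT arrays within 0.17, with a gap of 0.92 between the lowest KO and the highest WT array. The difference was 1.08 ± 0.16 (SE), or 2.11-fold, with means of -2.97 ± 0.090 in KO and -4.04 ± 0.093 in WT neonates (SD, n = 3 each). It was 1.06 within scan group 1, 1.102 within scan group 2 and 1.02 against WT replicate 3 alone. The probe was dim, with unscaled intensities of 56.3, 39.8 and 44.0 on KO arrays and 31.0, 27.5 and 36.5 on WT arrays. A normexp background correction adds an offset and also starts from other spot and background signals, and the part of each was not tested. With that correction the Insig1 difference was 0.65 with the 75th percentile and 0.40 with quantile normalisation. The median of all genes was 0.14 and -0.014 under those 2 settings and 0.028 without the correction.

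INSIG2 anchors SCAP as well but is not an SREBP target in the way INSIG1 is. Insig2 read 2.10, 2.28 and 2.05 in KO neonates, against 1.73, 1.95 and 1.57 in WT neonates. Every KO array was above every WT array, and the difference was 0.39 ± 0.17 (SE). A further Insig2 probe, for another transcript, read 0.46, 0.92 and 0.21 in KO neonates and -0.35, 0.41 and 0.020 in WT neonates, where the groups overlapped, with a difference of 0.50 ± 0.26.

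Scap, the escort of the SREBP precursors, read 1.65, 1.75 and 1.79 in KO neonates, against 1.54, 1.51 and 1.58 in WT neonates. The groups did not overlap, but the difference was small, at 0.19 ± 0.15 (SE). Srebf2 read -2.48, -2.33 and -2.30 in KO neonates, against -2.32, -2.53 and -2.66 in WT neonates. These ranges overlapped, and its difference of 0.13 ± 0.17 was below its own error. The dimmer Srebf2 probe gave 0.24 ± 0.21. Srebf1 read -3.87, -3.90 and -3.45 in KO neonates, against -3.44, -3.97 and -3.36 in WT neonates. Its groups overlapped as well, with a difference of -0.15 ± 0.23. Its sign turned with the normexp correction followed by the 75th percentile (0.19, where the median of all genes was 0.14), and it was -0.37 when WT replicate 3 stood for the wild type. The direction was not settled.

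The 3 enzyme genes stood higher in KO neonates by less than Insig1. Sqle, for squalene epoxidase, which adds the first oxygen on the way to the sterol ring, read 2.71, 3.05 and 2.87 in KO neonates, against 2.43, 2.47 and 2.49 in WT neonates. The groups did not overlap, the WT arrays were tightly packed, and the difference was 0.41 ± 0.16 (SE). Idi1, for the isomerase that makes dimethylallyl diphosphate, read 3.11, 3.52 and 3.64 in KO neonates, against 3.24, 2.91 and 2.80 in WT neonates. KO replicate 1 lay below WT replicate 1 there, and the difference was 0.44 ± 0.21. Hmgcs1, for the synthase that supplies HMG-CoA, read 4.71, 4.72 and 5.005 in KO neonates, against 4.80, 4.51 and 4.53 in WT neonates. The groups overlapped, with a difference of 0.20 ± 0.18, and it was 0.20 and 0.21 within scan groups 1 and 2.

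The scaling matters for the bright enzyme probes. Before scaling, Sqle read 3085, 2530 and 2381 intensity units on KO arrays, against 2653, 2713 and 3250 on WT arrays, and the groups overlapped. The 75th percentile was 471.9, 306.2 and 326.3 on the KO arrays and 493.2, 488.5 and 578.8 on the WT arrays. With quantile normalisation or array median scaling the differences of Insig1, Insig2, Sqle and Idi1 kept their sign.

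**Figure D1:**
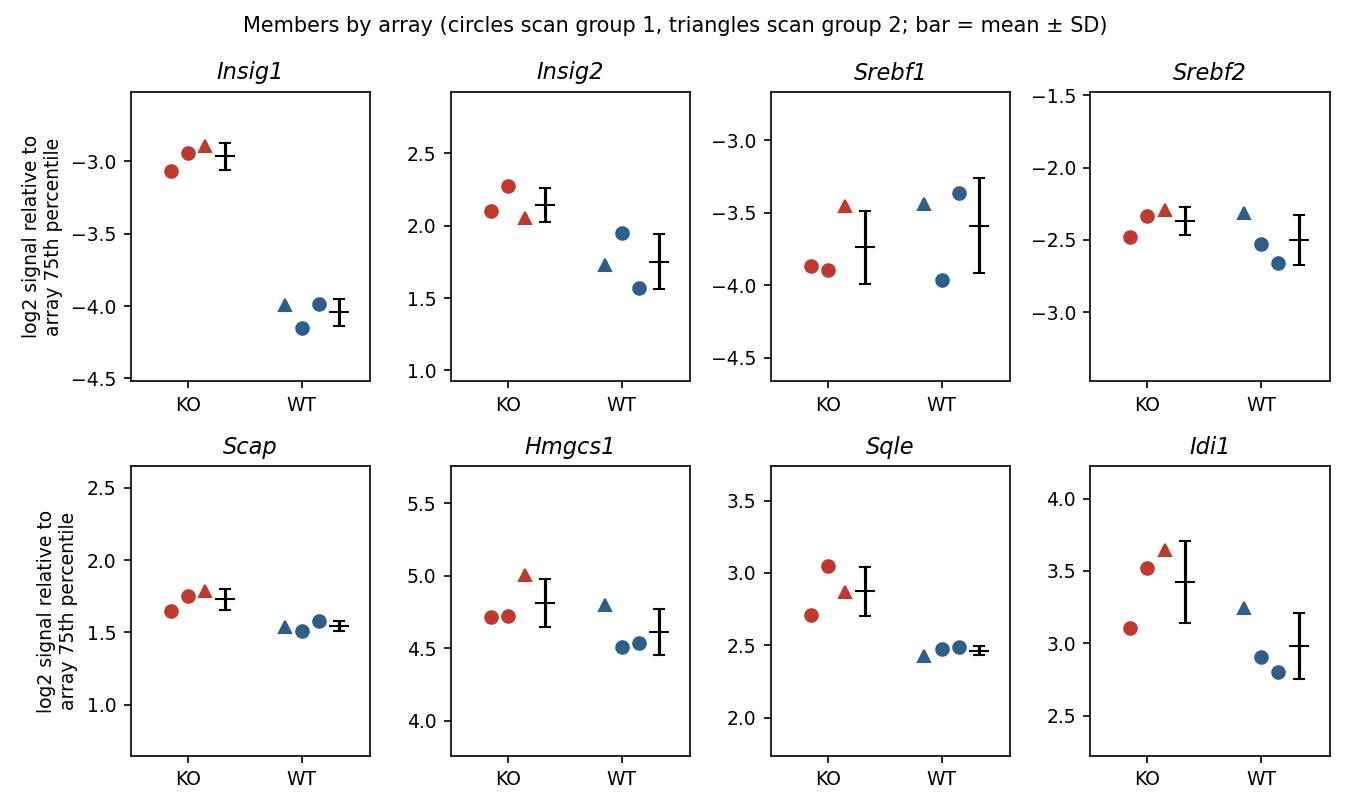
Log2 signal of each member relative to the 75th percentile of its array, with KO on the left and WT on the right of each panel, 1 point per neonate (circles scan group 1, triangles scan group 2) and the mean ± SD beside it. Each panel spans the same number of log2 units. Insig1 shows the widest gap, 0.92 between the nearest arrays, while Srebf1, Srebf2, Hmgcs1 and Idi1 overlap.

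Of the 8 members, 7 had a positive difference, and for 4 of them (Insig1, Insig2, Scap and Sqle) every KO array was above every WT array. Over all genes tested 53.3% had a positive difference, 10.1% had every KO array above every WT array and 8.09% had every KO array below. None of the 8 passed an adjusted p of 0.05 in limma over all genes, where 0.0802% of genes did, 0.0189% as higher. With the scan group as a block Insig1 passed and the other 7 did not, where 0.292% of genes passed, 0.123% as higher. Since the members were picked from this comparison, nothing is read from these counts. Their median difference was 0.30, against 0.028 for all genes tested.

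The stretches upstream of the start sites are shown for members with a single listed start, with Msmo1 added as the synthesis gene outside the members with the largest difference, so that the SREBP-related letters can be seen beside the values. The sequences are those of RefSeq on build GRCm38.p6, in which 7 of the 8 members matched. Each is the 250 bases before the start, read 5′ to 3′ on the strand of the gene. The windows are chr5:28071162-28071411 for Insig1, chr13:8885356-8885605 for Idi1, chr13:119690101-119690350 for Hmgcs1 and chr15:82147019-82147268 for Srebf2, all on the plus strand, and chr8:64733579-64733828 for Msmo1 on the minus strand. Capitals mark matches, on either strand, to the SREBP site TCACNCCAC, to the CCAAT box CCAAT, which NF-Y binds beside SREBP, and to the E-box CACGTG, which SREBP can also bind, and no marked match overlaps another.
Insig1: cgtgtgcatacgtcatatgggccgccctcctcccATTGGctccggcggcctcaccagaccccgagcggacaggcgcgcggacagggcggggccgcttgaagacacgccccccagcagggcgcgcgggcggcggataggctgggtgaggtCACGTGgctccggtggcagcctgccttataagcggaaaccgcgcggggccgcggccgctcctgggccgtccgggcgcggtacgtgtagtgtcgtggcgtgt
Idi1: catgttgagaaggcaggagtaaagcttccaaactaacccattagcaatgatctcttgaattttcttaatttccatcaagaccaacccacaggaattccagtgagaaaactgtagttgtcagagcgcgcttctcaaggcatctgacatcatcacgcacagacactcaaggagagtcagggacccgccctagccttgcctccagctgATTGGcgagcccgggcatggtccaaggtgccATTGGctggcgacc
Hmgcs1: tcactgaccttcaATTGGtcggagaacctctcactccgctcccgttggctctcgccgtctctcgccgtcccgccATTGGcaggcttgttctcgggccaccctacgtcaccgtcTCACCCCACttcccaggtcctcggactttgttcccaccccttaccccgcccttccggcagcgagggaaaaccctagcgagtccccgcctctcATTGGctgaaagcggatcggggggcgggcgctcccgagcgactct
Srebf2: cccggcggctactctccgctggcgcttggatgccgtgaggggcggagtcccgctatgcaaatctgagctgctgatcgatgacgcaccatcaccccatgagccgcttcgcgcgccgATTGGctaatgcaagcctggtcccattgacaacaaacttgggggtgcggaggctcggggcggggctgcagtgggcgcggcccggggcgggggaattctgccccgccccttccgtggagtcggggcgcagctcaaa
Msmo1: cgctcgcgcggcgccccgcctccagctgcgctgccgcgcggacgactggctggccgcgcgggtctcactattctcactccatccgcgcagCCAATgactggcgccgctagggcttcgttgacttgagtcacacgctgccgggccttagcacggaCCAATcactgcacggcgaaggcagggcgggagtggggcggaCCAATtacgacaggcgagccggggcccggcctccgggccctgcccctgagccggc

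The SREBP site matched once, in Hmgcs1 at positions -137 to -129 before the start, and 1.05% of all 32851 windows hold these letters. Counting a gene once, it was present in 1 of 7 members, against 1.22% of 27025 genes. Matches were found in 0 of 16 further sterol synthesis genes, 0 of 3 uptake genes and 0 of 16 lipogenesis genes. Insig1 had 1 E-box at -101 to -96, found in 6.02% of all windows, and 1 CCAAT box at -216 to -212. Idi1 had 2 CCAAT boxes, Hmgcs1 and Msmo1 had 3 each, and Srebf2 had 1. Counting a gene once over all its windows, a CCAAT box was present in 6 of 7 members and in 14 of 16 further sterol synthesis genes with a window, against 37.5% of 27025 genes. It was also present in 11 of 16 lipogenesis genes. Counted per window, a CCAAT box was in 7 of 12 for the members and 14 of 19 for the further sterol synthesis genes. For the lipogenesis genes it was in 11 of 18 windows, against 33.8% of all windows. The windows are short, and a match is a run of letters and not a shown binding site.

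The remaining sterol synthesis genes form a list of 21, of which 20 were measured. None passed the limma test over all genes (lowest adjusted p = 0.365, or 0.169 with the scan group as a block). Positive differences were found in 13 of 20, and every KO array was above every WT array in 2 of 20, Msmo1 and Sc5d, which is close to the 10.1% over all genes. At an unadjusted p under 0.05, 3 of 20 were higher and 0 lower, against 6.16% and 4.24% of all genes. The median difference was 0.14, against 0.028 for all genes, and it was 0.16 and 0.099 within scan groups 1 and 2 and 0.15 against WT replicate 3 alone. It was 0.22 without KO replicate 3, 0.082 without WT replicate 2 and 0.034 with quantile normalisation, where the median of all genes was -0.028.

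Msmo1, for the oxidase that starts the removal of methyl groups from the sterol ring, read 1.92, 2.70 and 2.73 in KO neonates, against 1.77, 1.46 and 1.20 in WT neonates. The groups did not overlap, but KO replicate 1 lay nearer to the WT arrays than to the other KO arrays. The difference was 0.97 ± 0.27 (SE, adjusted p = 0.365 in limma). Sc5d, a late sterol desaturase, read 0.58, 0.90 and 0.82 in KO neonates, against 0.42, 0.18 and 0.24 in WT neonates, with a difference of 0.49 ± 0.17. Nsdhl, which acts after Msmo1, differed by 0.63 ± 0.26 on its brighter probe and by -0.59 ± 0.28 on a further one, so its probes disagreed.

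Mvk, the mevalonate kinase gene, differed by 0.40 ± 0.23 (SE), and Hsd17b7, which works with Nsdhl, by 0.47 ± 0.30. Several genes that share SREBP-2 as their known driver showed no such gap. Fdft1, for squalene synthase, differed by -0.029 ± 0.33, Fdps, for farnesyl diphosphate synthase, by -0.039 ± 0.37, and Cyp51, for lanosterol demethylase, by -0.026 ± 0.27. Fdps read 2.37, 2.68 and 1.56 in KO neonates, against 1.62, 2.49 and 2.62 in WT neonates. Its low arrays, KO replicate 3 and WT replicate 1, were those of scan group 2, and the same 2 arrays were the lowest for Fdft1.

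**Figure D2:**
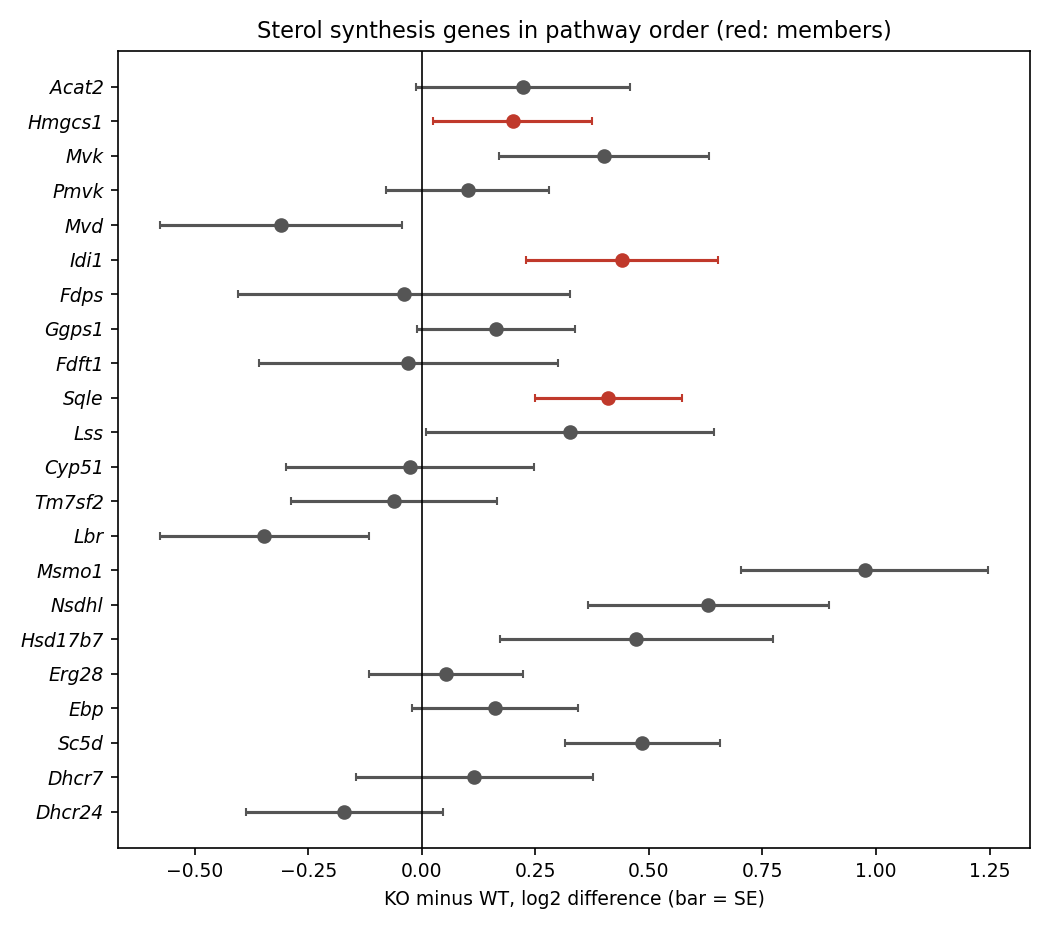
KO minus WT log2 difference (x axis, bar = SE) of measured sterol synthesis genes, ordered from acetoacetyl-CoA at the top to the last steps at the bottom, with members in red. Sqle, Idi1 and Hmgcs1 lie to the right of 0, Msmo1 is the farthest at 0.97, and Fdps, Fdft1 and Cyp51 lie at 0 within their errors.

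Of 8 listed genes of cholesterol uptake and transport, 7 were measured, and none passed the limma test, with or without the scan group as a block. Stard4 and Npc1 had every KO array above every WT array. Stard4, for a sterol carrier that SREBP-2 induces, read 2.71, 3.32 and 3.05 in KO neonates, against 2.32, 2.46 and 2.06 in WT neonates, a difference of 0.74 ± 0.21 (SE). Its dimmer probe gave -0.17 ± 0.24, so the probes disagreed. Npc1, which exports cholesterol from lysosomes, differed by 0.67 ± 0.21 on a dim probe, and by 0.35 with normexp and quantile normalisation.

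**Figure D3:**
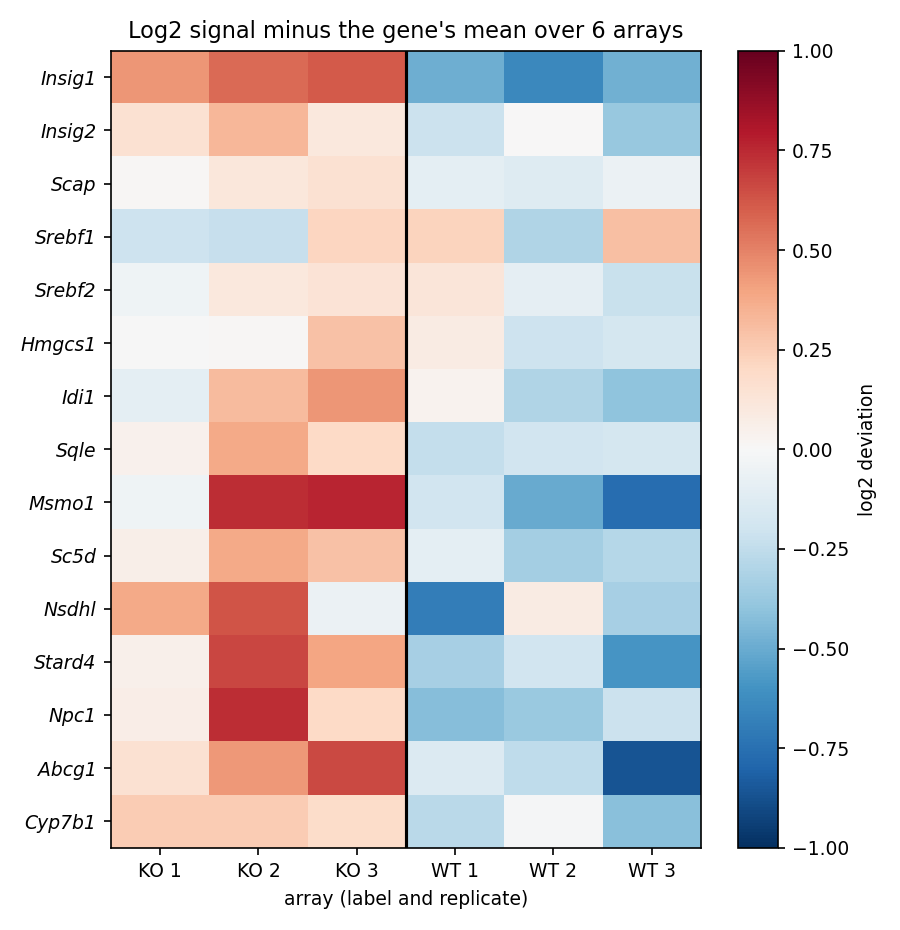
Log2 signal of each gene on each array minus that gene's mean over the 6 arrays (colour, from -1 blue to 1 red), with KO arrays left of the line and WT arrays right of it. Among the 3 KO arrays Insig1, Msmo1, Stard4 and Idi1 are each lowest on replicate 1, with the smallest spread of these for Insig1. Scap, Srebf2 and Hmgcs1 are also lowest on replicate 1.

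Whether Insig1 moves with the targets of SREBP-2 could be read only between the labels. The Insig1 values fall into 2 separate sets, the KO and the WT arrays, so a correlation with sterol genes over all 6 arrays would mostly restate that gap and none is given for them, and 3 arrays a group cannot test one within it. Side by side, Insig1 was higher in KO neonates together with Stard4, Npc1, Msmo1, Sc5d and Sqle, each with every KO array above every WT array. Fdps, Fdft1, Cyp51, Mvd and Srebf2 did not share the gap, with differences between -0.31 and 0.13. Within the KO arrays replicate 1 was the lowest for Insig1, Stard4, Npc1, Msmo1, Sc5d and Sqle, by unlike amounts. It stood 0.12 and 0.18 below replicates 2 and 3 for Insig1, 0.34 and 0.16 for Sqle and 0.32 and 0.24 for Sc5d. For Npc1 it stood 0.67 and 0.13 below them, for Stard4 0.62 and 0.34, and for Msmo1 0.78 and 0.81. Replicate 1 was also the lowest KO array for Srebf2 (by 0.14 and 0.18), Hmgcs1 and Acat2, whose groups overlapped. A low replicate 1 was therefore not particular to the genes with the gap.

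The named genes whose pattern over the 6 arrays was most like that of Insig1 were Klf9, Irs2, Cdkn1a, Herpud1 and Bmp2, with Pearson r between 0.986 and 0.994 across the arrays. The arrays share their genotype labels and scan groups, and with Insig1 in 2 separate sets such an r is high for any gene with a clear gap between the labels, so it only describes the pattern. It says nothing on the sterol genes. Irs2, for an insulin receptor substrate, read 2.77, 2.85 and 2.81 in KO neonates, against 2.21, 2.21 and 2.22 in WT neonates, a difference of 0.60 ± 0.15 (SE, adjusted p = 0.314 in limma). Klf9, for a zinc-finger transcription factor, read 1.80, 2.10 and 2.20 in KO neonates, against 0.80, 0.41 and 0.65 in WT neonates. Like Insig1, both genes had a gap between the groups wider than the range of either group.

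The machinery that cleaves and degrades the SREBP and INSIG proteins had no gene past the limma test, in 21 of 23 listed genes measured (lowest adjusted p = 0.483, and 0.251 with the scan group as a block). Its median difference was 0.023, against 0.028 for all genes, and it was negative in 7 of 20 alternatives. It was -0.11 without KO replicate 3, -0.037 without WT replicate 2, -0.043 without WT replicate 3 and -0.10 with normexp and quantile normalisation, so its direction was not settled. Mbtps1 and Mbtps2, the Golgi proteases that cut SREBP, differed by 0.35 ± 0.21 and 0.49 ± 0.22 (SE). The Mbtps2 probe was dim, and its difference was 0.12 with normexp and quantile normalisation. The ubiquitin ligase genes Rnf139 and Marchf6, which act in sterol-regulated degradation, differed by 0.082 ± 0.16 and -0.16 ± 0.19. Both differences were below their own error.

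The list of fatty acid synthesis genes, the main targets of SREBP-1, had 10 of 18 measured genes with a positive difference and a median of 0.098. It also counts Tmem97 (-0.30 ± 0.22, SE), which is on the list of cholesterol uptake and transport too. None of the 18 passed the limma test (lowest adjusted p = 0.423), and 1 of 18 was higher at an unadjusted p under 0.05, against 6.16% of all genes. Every KO array was above every WT array in 3 of 18 (Gpam, Acsl3 and Mid1ip1), against 10.1% of all genes, and below in 1 of 18 (Acss2), against 8.09%. The gene past the unadjusted threshold was Gpam, which starts triglyceride synthesis, at 0.63 ± 0.21 (SE) on a dim probe, and 0.083 with normexp and quantile normalisation. Fasn, for fatty acid synthase, read -3.41, -2.96 and -3.52 in KO neonates, against -3.09, -3.25 and -2.73 in WT neonates, which overlapped, with a difference of -0.28 ± 0.22. It was 0.070 with normexp and the 75th percentile, where all genes had a median of 0.14. Scd1, for a desaturase, differed by -0.25 ± 0.24, Acaca, for acetyl-CoA carboxylase, by 0.19 ± 0.20 and Acss2 by -0.38 ± 0.19. The sign of the list median was not settled, at -0.058 against WT replicate 3 alone and -0.024 when the probes of each gene were averaged.

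Genes of sterol export and oxysterol handling, many of them targets of the LXR receptors that sense oxysterols, had a median of 0.29 over 15 measured of 17. None passed the limma test (lowest adjusted p = 0.386), 10 of 15 were positive, against 53.3% of all genes, and every KO array was above every WT array in 3 of 15, against 10.1% of all genes. After normexp and quantile normalisation the list median was 0.16. Abcg1, a cholesterol exporter, read 0.52, 0.80 and 1.03 in KO neonates, against 0.24, 0.12 and -0.49 in WT neonates, a difference of 0.83 ± 0.25 (SE). Cyp7b1, an oxysterol hydroxylase, differed by 0.46 ± 0.17 and Abcg5 by 0.42 ± 0.19. Abca1, the other main exporter, overlapped, at 0.40 ± 0.25. Ch25h, which makes 25-hydroxycholesterol, a sterol that INSIG proteins bind, spread widely, at -2.12, -0.83 and -3.11 in KO neonates, against -4.09, -2.32 and -2.74 in WT neonates. Its difference of 1.03 ± 0.64 went with overlapping groups.

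**Figure D4:**
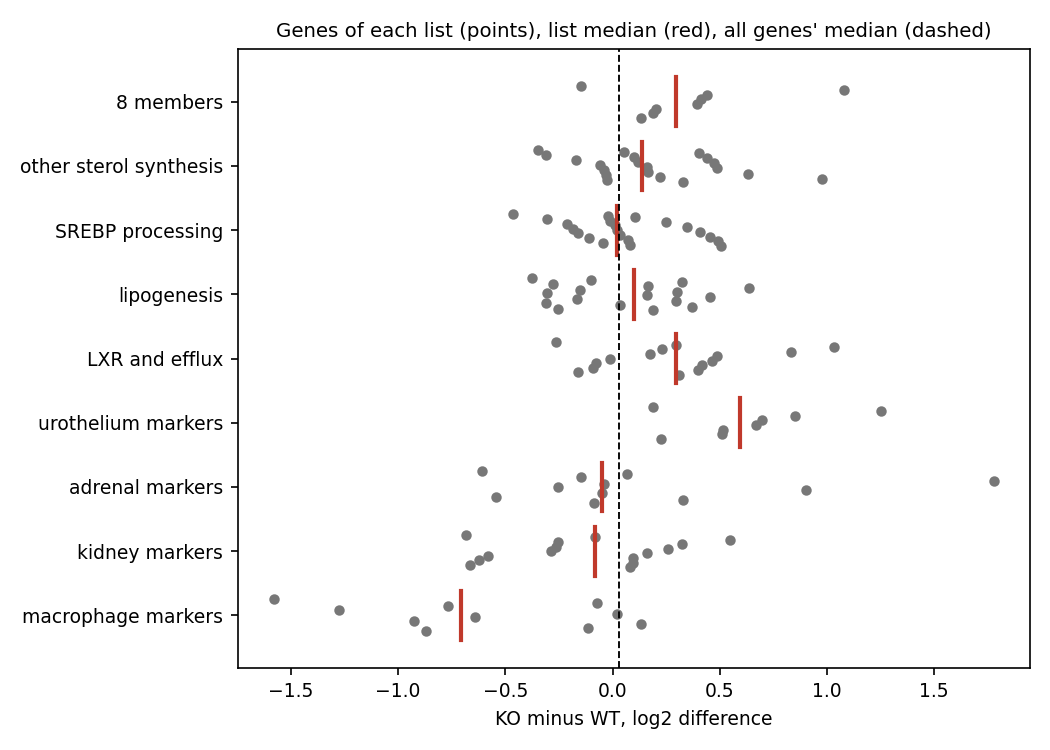
KO minus WT log2 difference (x axis) of every measured gene of the lists shown (points), with the list median in red and the median of all genes, 0.028, as a dashed line. The 8 members centre on 0.30, other sterol synthesis genes on 0.14, SREBP processing genes on 0.023, urothelium markers on 0.59 and macrophage markers on -0.71.

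Markers of other cell types differed between the labels beside these values. In whole kidney RNA, fewer cells of a type and less RNA per cell cannot be told apart. All 8 urothelium markers had a positive difference, and their summed signal was 7.41 to 10.7 in KO neonates and 4.83 to 6.03 in WT neonates, in multiples of the 75th percentile. Their median difference was 0.59, and 0.31 against WT replicate 3 alone. Of 10 measured macrophage markers 8 were negative, with sums of 6.07 to 6.32 in KO and 7.20 to 8.17 in WT neonates. Their median difference was -0.71, and it was -0.45 without KO replicate 2. After normexp it was -0.29 on the 75th percentile scale and -0.41 on the quantile scale. The adrenal gland, which lies on the kidney and takes up much cholesterol, had 11 of 15 markers measured. Of these, 4 had a positive and 7 a negative difference, with a median of -0.051. Their sums were 4.58 to 5.50 in KO and 5.66 to 6.52 in WT neonates. Star and Cyp11a1, which define steroid-making cells, did not pass the filter on dim probes, and neither did Cyp11b2 and Dbh. Hsd3b1, a steroid dehydrogenase with the largest positive difference on that list, differed by 1.78 ± 0.28 (SE, limma adjusted p = 0.0949). With normexp and quantile normalisation the Hsd3b1 difference was 0.82. Every KO array was above every WT array in 3 of 11 adrenal markers (Hsd3b1, Mrap and Mc2r), against 10.1% of all genes. Every KO array was below every WT array in 1 of 11 (Akr1b7, -0.55 ± 0.19), against 8.09%. Akr1b7 and Scarb1 (-0.15 ± 0.20) were the brightest markers in the adrenal sums.

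The summed signal of kidney markers overlapped between the groups, at 119.9 to 146.7 in KO and 130.1 to 143.9 in WT neonates. Of these markers 7 of 15 were positive. Every KO array was below every WT array in 1 of 15 (Cited1, -0.68 ± 0.20, SE), against 8.09% of all genes. Every KO array was above every WT array in 0 of 15, against 10.1%. Of liver markers 5 of 8 measured were positive, with sums of 30.8 to 37.9 in KO and 25.1 to 31.2 in WT neonates. Alb read -5.11, -1.79 and -3.20 in KO neonates, against -1.88, -1.92 and -1.53 in WT neonates. Fat markers had 4 of 9 measured, with Ucp1, Adipoq and Plin1 not past the filter, and sums of 33.4 to 43.0 in KO and 35.7 to 40.9 in WT neonates. All 7 measured erythroid markers were positive, with sums of 70.7 to 127.1 in KO and 70.7 to 113.6 in WT neonates. The part of any of these cell types in the sterol gene values was not tested.

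**Figure D5:**
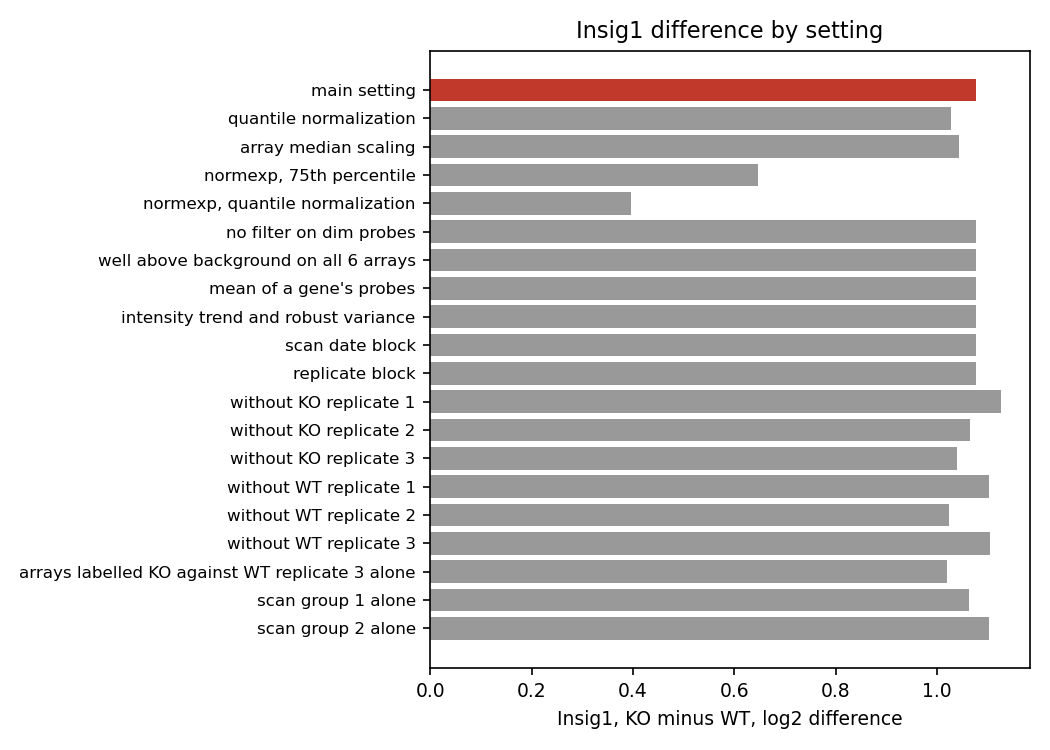
Insig1 KO minus WT log2 difference (bars from 0) under the main setting in red and the alternatives in grey. The bars stay between 1.02 and 1.13 except for the 2 normexp settings, at 0.65 and 0.40.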

How the data were processed

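Cy3-labelled kidney RNA of 6 neonates was hybridised to single-colour Agilent arrays, per the labels. The deposited spot intensity is linear, background-subtracted and was not normalised between arrays. The authors made it with Agilent Feature Extraction. The file headers give version 11.0.1.1, whereas the submitters' processing notes give 9.1.

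Of 44397 spots 1377 controls were left out, outlier spots were removed, log2 was taken, and the 75th percentile of each array was subtracted. Spots of a probe were averaged. Accessions named 27234 of 39429 probes through a RefSeq table of GRCm38.p6, whose coordinates are used only for its own promoter windows (the headers give another build for the array design). A gene was read by its brightest probe that passed the filter. No other sample columns were used.

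Groups came from the labels. limma 3.58.1 in R 4.3.3 (lmFit, eBayes, two-sided, Benjamini-Hochberg over 21203 genes, threshold 0.05) called 17 genes. The fit was tested on simulated data first. The number of arrays limits the precision, and p-values measure the spread between the neonates the design text calls independent. The normexp alternatives used the median spot and background signals with an offset of 50. With 3 arrays against 3, no exact permutation p of a single value can go below 0.1.

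The members and the gene lists were chosen with earlier results of these data known. Named were the members, Usp10, list genes (first the 4 with the smallest p of each list) and the 5 genes most like Insig1. Some list genes are not reported here. A planned correlation of Insig1 with sterol genes was not given, since its values form 2 sets. The main fit did not pair the samples by replicate number. Deviations from group means of same-numbered arrays correlated at -0.40, 0.48 and -0.60 for replicates 1, 2 and 3. Only replicate 2 had both its arrays in the same scan group, so these values cannot decide whether the numbers pair the samples.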

Additional observations from a re-analysis of the deposited data

How the results depend on the processing

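Over 20 alternatives the differences of Insig1 (0.40 to 1.13), Insig2 (0.30 to 0.57), Sqle (0.29 to 0.49), Idi1 (0.28 to 0.62), Hmgcs1 (0.074 to 0.29), Scap (0.071 to 0.25) and Srebf2 (0.020 to 0.29) were positive in each, and that of Srebf1 (-0.37 to 0.19) was negative in 19. Insig1 moved with normexp, to 0.65 with the 75th percentile and 0.40 with quantile normalisation. Those settings add an offset and also start from other spot and background signals, and the part of each was not tested. The Insig1 difference was 1.02 to 1.13 when single arrays were left out. The median of the other sterol synthesis genes stayed between 0.033 and 0.22.

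The limma count of 17 genes (4 higher, 13 lower) was 27 with normexp and the 75th percentile (12 higher, 15 lower). It was 0 with normexp and quantile normalisation, 0 with no filter on dim probes and 1 with signal above background on all 6 arrays. The count was 8 when the probes of a gene were averaged, 27 with every probe on its own and 45 with an intensity trend. With the scan group as a block it was 62, and with the replicate block, where pairing by number is not known, it was 0. It was 0 against WT replicate 3 alone, 30 without KO replicate 3 and 0 without any other single array. With no filter more genes were tested, and leaving out an array leaves fewer samples. What caused these changes in the count was not tested. With the replicate block Insig1 stayed at 1.08 (adjusted p = 0.320) and no list gene was called. The planned correlations of Insig1 with sterol genes, and their alternatives, were not run. The settings with 0 calls left 1072 to 2649 genes at an unadjusted p under 0.05 in limma. The comparisons with WT replicate 3 alone and within each scan group were added after seeing the data. Dim probes such as Insig1 and Srebf1 limit what background correction leaves.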
